A study of Caenorhabditis elegans with 4 samples.

Results

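The ASH-2 sites described here are the peaks of the series list that were found in both ChIP replicates of fem-2(b245) Caenorhabditis elegans adults. A nuclear peak of the series list counted as shared when at least 1 bp of it was covered by a peak of replicate 1 and at least 1 bp by a peak of replicate 2. This rule gave 318 shared sites among 3008 nuclear series peaks, or 10.6% (95% Wilson interval 9.52 to 11.7%). The other 2690 series peaks are called the rest of the series list, and 1576 of them overlapped no peak of either replicate. The members were chosen by the measured peak calls of all 3 lists, so the widths, scores and boundaries of the shared sites are tied to the rule and are given as descriptions, with no test.

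ASH-2 was immunoprecipitated from 2 samples with an affinity-purified polyclonal rabbit antibody, and 2 samples of input DNA accompany them. All 4 samples carry the genotype fem-2(b245)III, including the input, and samples of another genotype or antibody were not analysed here. By their labels the worms were hermaphrodites at the young adult stage that contain a germline, while the growth protocol speaks of gravid adults, and the stated temperature is 20 degrees Celsius. Each preparation pooled whole worms from batch cultures, so a peak cannot be assigned to the germline or to a somatic tissue. The labels do not record separate cultures for the replicates, and their spread may therefore be technical.

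ASH-2 is the C. elegans counterpart of mammalian ASH2L, a core subunit of COMPASS complexes, which place methyl groups on lysine 4 of histone H3. The trimethylated form of this mark is typical of active promoters, where it usually forms a narrow region, and it can spread over a longer stretch at some genes. In C. elegans, ASH-2 acts with the methyltransferase SET-2 and with WDR-5, and this group of proteins is known for roles in the germline and in adult lifespan. The fem-2 gene product is a phosphatase of the sex determination pathway, needed for male fates and for spermatogenesis.

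The lists entering the rule differed greatly in form. Replicate 1 had 379 nuclear peaks with a median width of 1899 bp, replicate 2 had 1900 with a median of 335 bp, and the series list had a median of 244 bp. Replicate 1 overlapped 650 series peaks, of which 332 had no replicate 2 peak, and replicate 2 overlapped 1100, of which 782 had no replicate 1 peak. The shared sites lay in 243 of the 379 peaks of replicate 1, or 64.1% (59.2 to 68.8%), and in 394 of the 1900 peaks of replicate 2, or 20.7% (18.97 to 22.6%). Positions follow the WS220 build of WormBase. No gene is named for a site and no sequence is shown, since no annotation or genome of that build was used here.

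The shared sites were mostly broad. Their median width in the series list was 1082 bp (95% interval of the median 957 to 1208 bp), with a middle 50% from 603.5 to 1668.5 bp, against a median of 228 bp (223 to 234 bp) in the rest of the list. Of the 318 sites, 61 were below 500 bp, 83 were 500 bp to under 1 kb, 107 were 1 kb to under 2 kb, 51 were 2 kb to under 5 kb and 16 were 5 kb or more. In the rest of the list, 2388 of 2690 peaks, or 88.8%, were below 500 bp. The shared sites were thus 10.6% of the peaks of the series list but held 488.2 kb, or 35.02% of its bases.

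The class a series peak belonged to went with how often it was shared. Among series peaks below 500 bp, 61 of 2449 were shared, or 2.49% (1.94 to 3.19%). The share was 26.4% (21.9 to 31.6%) at 500 bp to under 1 kb and 70.4% (62.7 to 77.1%) at 1 kb to under 2 kb. Beyond that width it did not climb further: 72.9% (61.5 to 81.9%) of peaks of 2 kb to under 5 kb and 69.6% (49.1 to 84.4%) of those of 5 kb or more were shared. A wide peak has more bases that another list can touch, so this gradient is partly built into the rule.

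**Figure D1:**
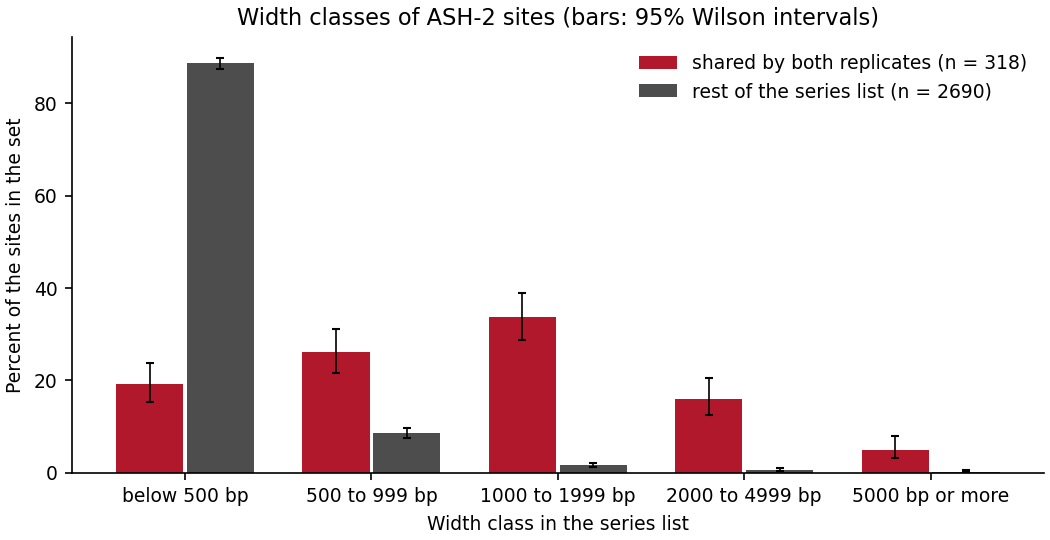
Width classes of ASH-2 sites. Bars give the percent of the 318 shared sites (red) and of the 2690 other series peaks (grey) in each class of width, with 95% Wilson intervals; the 1 kb to under 2 kb class is the fullest among shared sites with 107, and the class below 500 bp holds 2388 of the others.

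Bases, unlike counts, lay mainly in the broader classes. Sites of 2 kb to under 5 kb held 153.5 kb and the 16 sites of 5 kb or more held 108.4 kb, while the 61 sites below 500 bp together held 20.4 kb. Score went with width as well. Among the shared sites, the authors' series score had a median of 8.25 below 500 bp and 14.67 at 500 bp to under 1 kb. It was 18.11 at 1 kb to under 2 kb, 26.72 at 2 kb to under 5 kb and 31.88 at 5 kb or more. Over the 318 sites the rank correlation of width and score was 0.509, a description over neighbouring peaks of the same libraries. Over the rest of the list it was 0.425.

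The broadest shared site, at 3159380 to 3168635 in the left arm of chromosome II, was 9256 bp wide and had 1 peak of each replicate over it. The next was a peak of 9060 bp in the centre of chromosome V, from 7915978 to 7925037, again with 1 peak of each replicate. These were single calls in all lists. The third, of 8205 bp near the left end of chromosome III from 321771 to 329975, was covered by 2 peaks of each replicate, and the fourth, of 7881 bp on the X from 5045085 to 5052965, by 1 peak of replicate 1 and 3 of replicate 2. The fifth, of 7749 bp on chromosome III from 13074524 to 13082272, had 1 peak of each. All of the 5 were covered for at least 98.9% of their length by replicate 2.

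The narrowest shared sites lay beside other shared sites. The narrowest, 151 bp on the X from 9188597 to 9188747, had a score of 1.35 and ranked 3005 of the 3008 series peaks. A site of 176 bp from 9185579 to 9185754 belonged to the same region of the X. Each of the 5 narrowest sites lay within 1 kb of another shared site, and each lay under a replicate 1 peak that another shared site also touched. The other three were on chromosome I from 11385462 to 11385615, on chromosome II from 15140702 to 15140857 and on chromosome V from 15682029 to 15682207. Of the 61 sites below 500 bp, 41 (67.2%, 54.7 to 77.7%) shared a replicate peak with another shared site, compared with 38 of 107 (35.5%, 27.1 to 44.9%) at 1 kb to under 2 kb.

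To see how well the lists placed the same boundaries, the sites with an unambiguous match were used. These are the 101 of 318 shared sites (31.8%, 26.9 to 37.1%) that overlapped exactly 1 peak of each replicate, where neither of those peaks overlapped another series peak. Their median width was 1161 bp in the series list, 1906 bp in replicate 1 and 1140 bp in replicate 2. Boundary offsets are given as series position minus replicate position, so a positive start offset and a negative end offset place the series peak inside the replicate peak.

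Replicate 1 extended beyond the series peak on both sides in nearly every matched site. The median offset was 305 bp at the start (95% interval of the median 278 to 333 bp) and -364 bp at the end (-391 to -343 bp). The series start lay inside the replicate 1 peak in 100 of 101 sites and the series end in 98 of 101. Replicate 1 contained the whole series peak in 97 of 101 sites, and in 0 of 101 did it lie within the series peak. Neither boundary of replicate 1 ever fell on the same base as that of the series list, and in 83 of 101 sites (82.2%, 73.6 to 88.4%) both ends were within 500 bp.

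Replicate 2 placed its boundaries much closer to those of the series list. The median offset was -43 bp at the start (-52 to -26 bp) and -10 bp at the end (-27 to 5 bp). Both ends were within 100 bp in 54 of 101 sites (53.5%, 43.8 to 62.9%), against 0 of 101 for replicate 1, and within 250 bp in 86 of 101, against 5 of 101. The replicate 2 peak lay within the series peak in 36 sites, contained it in 18 and was shifted to 1 side in the others. Between the replicates themselves, the replicate 2 peak lay within the replicate 1 peak in 97 of 101 sites, starting 348 bp after it and ending 374 bp before it in the median.

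**Figure D2:**
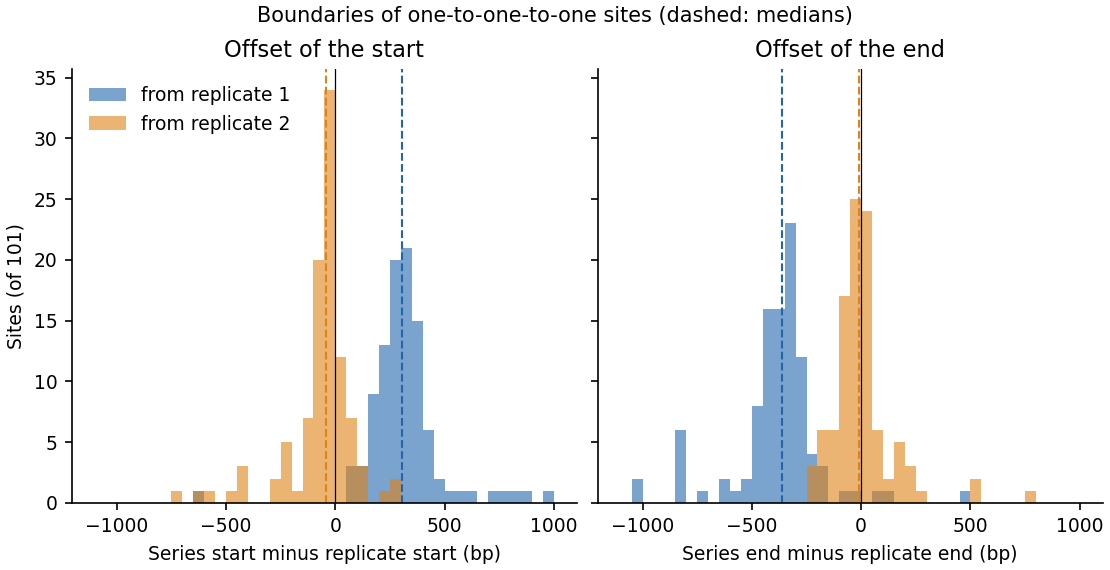
Boundary agreement in the 101 uniquely matched sites. Histograms in bins of 50 bp give the series boundary minus the replicate boundary in bp, for starts (left) and ends (right), from replicate 1 (blue) and replicate 2 (orange), with dashed medians; the replicate 1 medians lie at 305 and -364 bp and the replicate 2 medians at -43 and -10 bp.

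The middles of the matched peaks lay close together. The midpoint of the series peak was 51.5 bp (median, absolute) from that of replicate 1 and 43 bp from that of replicate 2, with largest distances of 394.5 and 361.5 bp. The margin of replicate 1 did not grow in step with the width of the site. At sites of 500 bp to under 1 kb its median start and end offsets were 305 and -368 bp, and at the 7 sites of 5 kb or more they were 359 and -414 bp. At 1 kb to under 2 kb they were smallest, at 245.5 and -326.5 bp. A margin of this size weighs more on a short site, and the bases common to the 3 peaks, as a percent of the bases in any of them, were 29.5% in the median of the 7 sites below 500 bp, 41.7% at 500 bp to under 1 kb, 66.6% at 1 kb to under 2 kb, 78.6% at 2 kb to under 5 kb and 89.5% at 5 kb or more. Over all 101 sites this three-way overlap had a median of 58.7% and ran from 10.8 to 92.2%. Sites that replicate 2 broke into several peaks are not among the matched sites. Broad examples left out are chromosome II from 11985881 to 11993478 (4 replicate 2 peaks) and the X from 5045085 to 5052965 (3). The value of 89.5% thus describes unbroken broad sites only.

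The highest three-way overlap, 92.2%, was at the 9256 bp site of chromosome II given above. Replicate 1 called it from 3159096 to 3169049 and replicate 2 from 3159439 to 3168619. It was followed by 91.3% on chromosome III from 1362657 to 1370130 and by the 9060 bp site of chromosome V, also at 91.3%. Chromosome III from 11641910 to 11647559 had 89.5%, with an end 2 bp from that of replicate 2, and chromosome IV from 6716656 to 6721229 had 89.2%. These 5 sites were all wider than 4.5 kb. Each list called them as 1 unbroken peak, which holds for every uniquely matched site by definition.

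At the other end, the lowest three-way overlaps came from sites where replicate 2 marked a small piece. On chromosome V from 19636715 to 19637476 the overlap was 10.8%, with a replicate 2 peak of 250 bp inside a replicate 1 peak of 2308 bp. On chromosome II from 13137677 to 13138549 it was 13.2%, with 198 bp in replicate 2 and 1499 bp in replicate 1. Those on chromosome I from 13752794 to 13753211 (13.4%), on chromosome III from 11862199 to 11862919 (14.5%) and on chromosome I from 898484 to 899064 (16.1%) had replicate 2 peaks of 196, 189 and 188 bp. In replicate 2, the peak on chromosome V scored 77.41, between the lower quartile of that list (70.89) and its median (108.8), and the other 4 scored 50.91 to 52.1, near its lowest score of 50.1.

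Over all 318 sites, coverage by the replicates was nearly complete on one side and variable on the other. Replicate 1 covered 280 sites (88.1%, 84.02 to 91.2%) from end to end, whereas replicate 2 did so for 69 (21.7%, 17.5 to 26.6%). The median site was covered for 100% of its length by replicate 1 and for 94.5% by replicate 2, and 8 sites were covered for less than 50% by replicate 1 against 32 by replicate 2. Replicate 2 also broke sites up: 84 of the sites held 2 or more of its peaks, compared with 3 for replicate 1.

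Several shared sites can lie in 1 replicate peak, and such sites are not separate observations. Joining shared sites through the replicate peaks they touch gave 239 shared domains. Of these, 184 held 1 shared site, 41 held 2, 7 held 3, 4 held 4 and 3 held 5, so that 134 of 318 sites (42.1%, 36.8 to 47.6%) shared their domain with another. Replicate 1 supplied 1 peak in 235 of the 239 domains and 2 peaks in the other 4. Replicate 2 supplied 1 peak in 145, 2 in 64 and 5 or more in 7. A further 72 series peaks lay under the replicate 1 peaks of 54 domains without being touched by replicate 2.

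The domains had a median width of 2160 bp and spanned 692.3 kb in all. Replicate 1 peaks filled 97.4% of this length, shared series peaks 70.5% and replicate 2 peaks 66.9%. Domains with 2 or more shared sites had a median width of 3329 bp, against 1984 bp for those with 1 site, and were filled for 77.3% of their length by replicate 2 in the median, against 56.3%.

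The widest domain, 14270 bp on the right arm of chromosome II from 11985678 to 11999947, was a single peak of replicate 1. The series list gave 4 shared sites in it, of 7598, 288, 277 and 2425 bp, and replicate 2 gave 7 peaks. On the X, the domain from 9184497 to 9189258 was 1 peak in replicate 1 and 1 in replicate 2 but 5 shared sites in the series list. The scores at this domain of the X differed greatly in their standing within each list. Its replicate 2 peak carried 3100, the value at which 96 peaks of that list are tied near its top, its replicate 1 peak carried 53.39, close to the lowest score of 50.3, and its series sites carried 1.35 to 6.71.

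Near the right end of chromosome II, the domain from 15137828 to 15140934 held 5 shared sites of 156 to 546 bp under 1 peak of replicate 1 and 2 of replicate 2. In the centre of chromosome IV, the domain from 6722509 to 6731191 held 5 shared sites under 1 replicate 1 peak of 8683 bp and 6 replicate 2 peaks. In the same centre, the domain from 6688724 to 6700821 differed, with 2 replicate 1 peaks that left a gap over the middle, while the series list and replicate 2 filled it. Replicate 1 peaks there covered 6041 bp, the shared sites 11548 bp and the 6 replicate 2 peaks 11639 bp. The domain with the highest score among these was on chromosome V from 6069967 to 6076950, with 4 shared sites, a highest series score of 65.24 and 8 replicate 2 peaks.

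**Figure D3:**
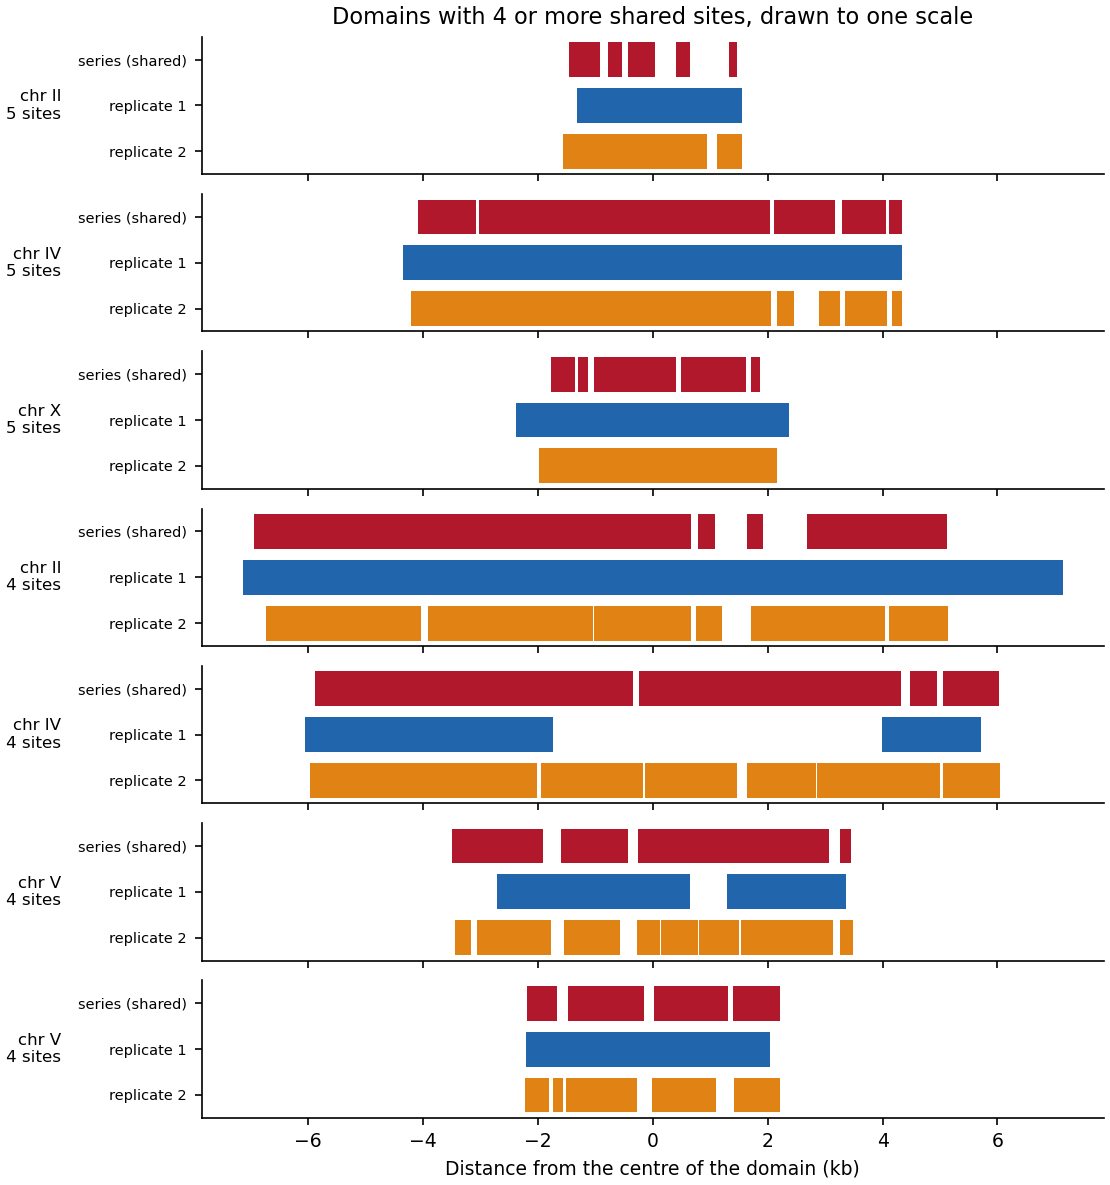
The 7 domains with 4 or more shared sites, drawn to one scale as distance from the centre of each domain in kb. Bars show the shared sites of the series list (red), the replicate 1 peaks (blue) and the replicate 2 peaks (orange) that touch them; replicate 1 is unbroken in 5 of the 7, and replicate 2 is unbroken only in the domain on the X.

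The distance from a shared site to the nearest other shared site ranged from under 1 kb to over 1 Mb. The nearest other shared site was less than 1 kb away for 141 of 318 sites (44.3%, 38.98 to 49.8%), 1 to 10 kb away for 23, 10 to 100 kb away for 69 and 100 kb or more away for 85. Few sites thus lay between 1 and 10 kb from the next. Counted by domain, the short distances mostly disappeared. The median distance from a domain to its nearest other domain was 81.1 kb (95% interval of the median 52.2 to 109.3 kb). From a site to its nearest other site the median was 4.18 kb (1.07 to 21.2 kb). These distances leave out the farther neighbour on the other side. Of the 239 domains, 48 lay within 10 kb of another.

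**Figure D4:**
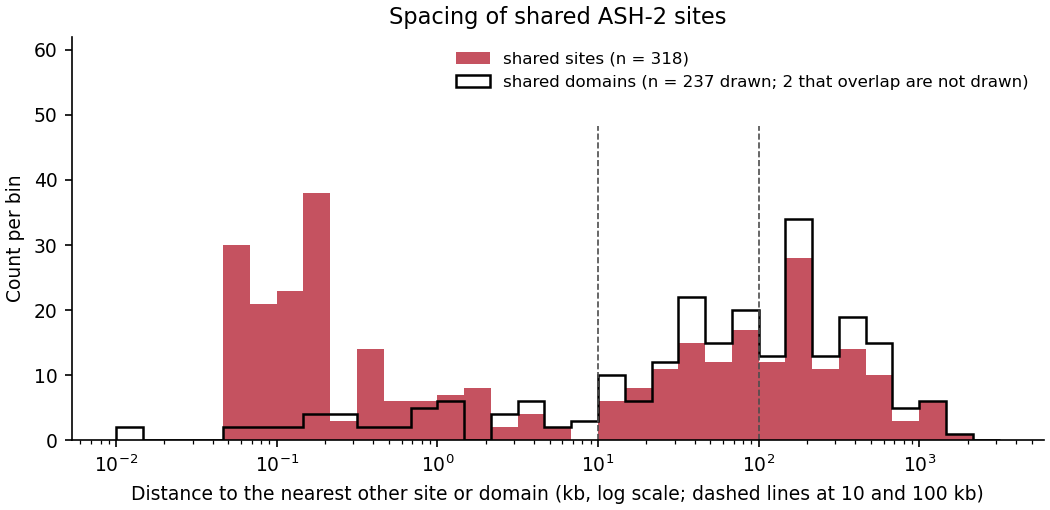
Spacing of shared ASH-2 sites. The distance to the nearest other site (red, n = 318) or domain (black line, 237 of 239 domains; the other 2 overlap each other) is on a log axis in kb, with dashed lines at 10 and 100 kb; sites pile up below 1 kb and above 10 kb, and domains above 10 kb.

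Clusters were defined as 3 or more shared sites joined by gaps of at most 10 kb. There were 23 of them, holding 88 sites (27.7%, 23.04 to 32.8%), besides 38 pairs and 154 single sites. They spanned 1625 to 20354 bp, with a median of 6459 bp. In 12 of the 23 the sites all belonged to 1 domain, that is, they were joined through the replicate peaks over them. Of the clusters, 11 were on autosome arms, 8 in autosome centres and 4 on the X, and chromosome I had none among its 37 sites. With domains counted in place of sites, 2 clusters with 8 domains remained.

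The fullest cluster under the limit of 10 kb lay on the right arm of chromosome V from 18047749 to 18061541, with 8 shared sites in 4 neighbouring domains. Its sites were 563 to 1952 bp wide and scored 5.70 to 15.94, and they covered 74.7% of the 13793 bp between the first and the last base. Replicate 1 had 4 peaks there, of 3398, 3290, 3207 and 2190 bp, and replicate 2 had 12. The next, on chromosome IV from 6710835 to 6731188, had 7 sites in 3 domains and covered 90.2% of 20354 bp. A cluster of 4 sites ended shortly before it, at 6700794, with a gap just over 10 kb. A slightly wider limit would join them into the fullest cluster, and their facing domains lay only 9.35 kb apart. The next 2, with 5 sites each, were single domains described above, on chromosome II from 15137919 to 15140857 and on the X from 9185109 to 9188747. Of the 6 clusters with 4 sites, the first by position was the widest domain, on chromosome II.

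In the centre of chromosome IV, 3 clusters with 4 or more sites followed each other within 62.9 kb, from 6668310 to 6731188, a stretch singled out after its values were seen. It held 15 shared sites in 6 domains, which is 41.7% of the 36 shared sites in the centre of that chromosome. Shared sites covered 56.9% of it. The series list had 29 peaks in this stretch, replicate 1 had 7 and replicate 2 had 34. The scores of its shared sites were modest, from 2.31 to 19.94, against a median of 16.8 over all shared sites.

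Isolated sites, with no other shared site within 100 kb, numbered 85 (26.7%, 22.2 to 31.9%). Their median score was 25.14 (95% interval of the median 20.34 to 28.2), their median width 1243 bp (1018 to 1556 bp). The 88 clustered sites had medians of 12.5 (9.29 to 14.27) and 1058 bp (822 to 1258 bp). Many clustered sites shared a domain, whereas each isolated site was alone in its domain. The clustered values thus count parts of the same domain more than once, and their intervals do not allow for that. Isolated sites lie far from other shared sites by definition, which does not bar other series peaks nearby. A median of 2 other series peaks lay within 50 kb of an isolated site, and 22 of the 85 had none. Among clustered sites this number varied widely. It was 2 at chromosome II from 4641168 to 4642217 and 28 at chromosome IV from 6688898 to 6694431, other shared sites included. Of the isolated sites on autosomes, 24 of 75 were in centres, and 10 of the 85 were on the X. Of the clustered sites, 33 of 74 on autosomes were in centres, and 14 of 88 were on the X.

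The most isolated site was on chromosome II from 6296616 to 6297327, 1652 kb from the next shared site. It was 712 bp wide, ranked 7 of all series peaks with a score of 63.62, and had no other series peak within 50 kb. The second was the only shared site in the centre of chromosome III, from 3896977 to 3897587, at 1395 kb, with a score of 31.75. The others were on the X from 15634936 to 15635839 (1245 kb) and from 142771 to 143692 (1231 kb), and on chromosome II from 8459805 to 8460435 (1171 kb). All of the 5 were below 1 kb in width and, like nearly all shared sites, each had a single replicate 1 peak over it.

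Every nuclear chromosome carried shared sites, with unequal density. Chromosome IV had 4.29 per Mb (75 sites in 55 domains), chromosome V 3.86 (80 in 58), chromosome II 3.23 (49 in 37), chromosome III 3.05 (42 in 34), chromosome I 2.45 (37 in 33) and the X 1.98 (35 in 22). The X was lowest in sites and, at 1.24 per Mb, also in domains. As a share of the series peaks of each chromosome, the order was different. On the X, 15.3% (11.2 to 20.5%) of series peaks were shared, on chromosome V 13.1% (10.6 to 15.9%), on IV 12.7% (10.3 to 15.7%), on II 9.35% (7.15 to 12.1%), on I 7.81% (5.72 to 10.6%) and on III 7.25% (5.41 to 9.66%), beside 10.6% over all. The intervals of the X, V, IV and II overlap each other, as do those of II, I and III, and those of IV and I.

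**Figure D5:**
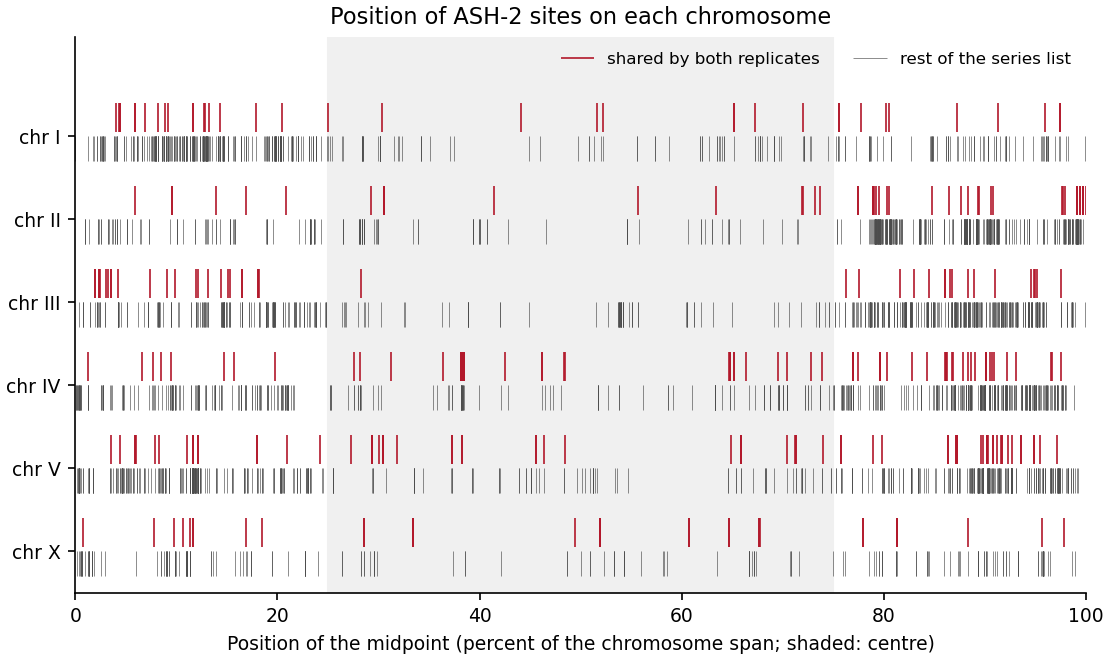
Position of ASH-2 sites on each chromosome. Ticks mark the midpoints of shared sites (red, above) and of the other series peaks (grey, below) as a percent of the span of each chromosome, with the centre (middle 50%) shaded; chromosome III has 1 shared site in its centre, and chromosome IV has 36.

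Each autosome had its own layout of shared sites over the left arm, the centre and the right arm, the centre being the middle 50% of the chromosome. Chromosome I was heaviest on the left, with 19 sites on the left arm, 8 in the centre and 10 on the right arm. Chromosome II was heaviest on the right, with 6, 11 and 32. On chromosome III the sites lay on both arms, with 24, 1 and 17. Chromosome IV had 8, 36 and 31, and chromosome V had 17, 29 and 34. Since a centre is longer than an arm, counts and densities can differ in order: the left arm had 1.83 sites per Mb and the centre 4.12 on IV, whereas on V the left arm had 3.28 and the centre 2.80. The right arm was the densest part of II (8.43 per Mb), IV (7.09) and V (6.57), and the left arm that of I (5.04) and III (6.96). In those densest parts lay 51.4% of the shared sites of I, 65.3% of II, 57.1% of III, 41.3% of IV and 42.5% of V. Of the rest of the list, the same parts held 63.2%, 72.8%, 29.8%, 53.9% and 45.0%. Only on III did the densest part hold a larger share of the shared sites than of the rest. On the X the parts had almost equal density, at 2.03, 2.03 and 1.81 per Mb.

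The centre of chromosome III was the emptiest part of any chromosome, with 0.145 shared sites per Mb against 4.12 in the centre of chromosome IV. Between 3897588 and 10505923 on chromosome III, 6.61 Mb passed without a shared site. The lists were not empty there: 67 series peaks, 72 replicate 2 peaks and 4 replicate 1 peaks lay in this interval. The longest intervals without a shared site on the other chromosomes were shorter, with 3.42 Mb on V (10023112 to 13440112), 2.85 Mb on IV (8469581 to 11324023), 2.83 Mb on the X (5915931 to 8746766), 2.16 Mb on II (6297328 to 8459804) and 2.07 Mb on I (4574095 to 6647795). In these 5 intervals replicate 2 had 8 to 29 peaks, while replicate 1 had 1 on the X and 0 on the others.

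The shared fraction of series peaks differed along the autosomes, and so did the fraction overlapped by replicate 2. In autosome centres, 85 of 468 series peaks were shared (18.2%, 14.9 to 21.9%), and on autosome arms 198 of 2311 (8.57%, 7.49 to 9.78%). Replicate 1 overlapped 23.9% (20.3 to 28.0%) of series peaks in centres and 21.4% (19.8 to 23.1%) on arms, whereas replicate 2 overlapped 70.1% (65.8 to 74.1%) and 26.2% (24.5 to 28.1%). On the X, replicate 1 overlapped 19.2% (14.6 to 24.8%) and replicate 2 72.5% (66.4 to 77.9%). The part of the unequal lists in these shares was not tested. The median widths of shared sites had overlapping intervals in all parts, at 1104 bp in autosome centres (957 to 1291 bp), 1084.5 bp on autosome arms (890 to 1247 bp) and 936 bp on the X (669 to 1434 bp).

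At the scale of 1 Mb, 20 of 103 bins had no shared site, 42 had 1 or 2, and 6 had 10 or more. Those 6 bins held 83 sites, or 26.1%. The fullest, on chromosome V from 18000001 to 19000000, had 20 sites in 15 domains. On chromosome IV, the bins from 6000001 to 7000000 and from 15000001 to 16000000 had 16 sites each, but in 7 and 13 domains, so the first was made of a few broken domains and the other of many separate ones. The last bin of chromosome II, from 15000001 to 15189226, had 11 sites in 6 domains. The first bin of chromosome III had 10 sites in 6 domains, and the bin from 6000001 to 7000000 on chromosome V had 10 sites in 4 domains. That bin of chromosome V had the highest shared fraction of the 6, with 52.6% of its series peaks.

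The outermost shared sites are given by position, and right ends go by the last base covered in any list. On chromosome II the last shared site, from 15186006 to 15187458, ended within 2 kb of that base, 15189226. The chromosome itself may extend further, so the distance of this site to its end is not known here. On the X the first began at 142771, on chromosome IV at 222222 and on chromosome III at 273482. The first sites were farther in on chromosome I (609895), V (724489) and II (891244).

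Among the strongest series peaks most were shared. Of the 50 with the highest scores 49 were shared, and of the 502 with a rank of 500 or better, ties included, 250 were. The median rank was 199.5 for shared sites and 1544 for the rest. The highest-scoring shared site of chromosome I, from 7868524 to 7869766, scored 48.15 and ranked 20. Chromosome II had rank 2 (its 9256 bp site), III rank 4 (10505924 to 10506573), IV rank 1 (13921967 to 13924261), V rank 6 (6071869 to 6073038) and the X rank 13 (its first site). In the 101 uniquely matched sites, the rank correlation of score was 0.624 between the series list and replicate 1, 0.617 between the series list and replicate 2 and 0.717 between the replicates, as descriptions over sites of the same libraries. In replicate 2, 32 of these 101 scores were 3100 or more and largely tied.

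Near the limit of the rule, few sites rested on a few bases. The smallest shared overlap was 22 bp with replicate 1, at chromosome I from 1757223 to 1757501 (score 8.58), followed by 32 bp at chromosome V from 18679791 to 18680230 (7.91) and 47 bp at chromosome V from 7718496 to 7719096 (3.29). Replicate 2 covered all 3 completely. Just outside, a series peak on chromosome IV from 11340061 to 11340378 (14.45) lay within replicate 1 but missed replicate 2 by 24 bp. A peak on chromosome IV from 6721854 to 6722443 (5.79) missed replicate 1 by 65 bp, and one on chromosome II from 11994090 to 11994250 (3.07) missed replicate 2 by 66 bp. Of the 1114 series peaks with a peak of only 1 replicate, 76 lay within 500 bp of a peak of the other.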

How the data were processed

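Per the labels' protocols, ground frozen adults were crosslinked in 1% formaldehyde (10 minutes) before sonication, with 5 µg of antibody per ChIP. BWA and the ce10 build are named in the submitters' processing notes, and the deposited lists carry WS220 in their headers and MACS (replicates) or MACS v2 (series list) as their source. Caller settings, control and any pooling were not given in the sources used here. To every peak the authors gave a score of unstated kind, which was compared only within its own list. No read counts are given, so depth is unknown, and intervals cover counting error only, with neighbouring peaks treated as independent.

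Overlaps, offsets, domains and spacing were computed with Python 3.11.15, NumPy 2.4.6, pandas 2.3.3 and SciPy 1.17.1, and drawn with Matplotlib 3.10.9. Mitochondrial peaks (1 in the series list, 1 in replicate 2) were left out. Shares have 95% Wilson intervals and medians 95% binomial order-statistic intervals. Each chromosome ends at the last base covered in any list; places along it go by peak midpoint. Functions were tested on simulated lists, and all 50 sets of known sites, clusters and offsets were recovered. Each simulated shared site had its own single peak in each replicate. The joining of sites through a common replicate peak was thus not tried, nor was the removal of ambiguous matches. No significance test was run: each replicate gives 1 list, and the rule used the lists themselves. Sites named are the 5 widest, narrowest, best and worst matched and most isolated, the 5 fullest clusters, the top site per chromosome and 3 on each side of the limit. Members and rules were chosen with earlier results of these data known. The input samples were not analysed here.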

Additional observations from a re-analysis of the deposited data

How the results depend on the processing

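The number of shared sites moved to 188, in 148 domains, with the 50% of each list with the higher scores, and lay at 650 to 1100 sites in 375 to 919 domains when a single replicate was required. The median width was 1398 bp with the higher-scoring 50%, 825 bp with peaks within 500 bp counted as overlapping, and 414 to 505.5 bp with a single replicate. The share of uniquely matched sites was 45.2% with the higher-scoring 50% and 19.9% within 500 bp. The clustered share was 20.7% with the higher-scoring 50%, 41.3% within 500 bp, 3.35% over domains in place of sites, and 42.5 to 51.8% with a single replicate. The isolated share was 36.7% with the higher-scoring 50%, 17.2% within 500 bp, 34.6% at a distance of 50 kb, 14.8% at 200 kb, 44.4% over domains, and 9.27 to 10.9% with a single replicate. Centres held 17.7% of autosomal shared sites when each chromosome was cut into 3 equal parts, which narrows the centre by construction, and 18.5 to 35.1% with a single replicate. The X held 6.77 to 15.1% with a single replicate. The causes of the other shifts were not tested. Of 64 recomputed values over 12 alternatives, 36 stayed within their interval or within 1.5 times the count, and no boundary offset or three-way overlap left its interval under the 3 alternatives run on it. No paired analysis was possible because each replicate gives a single list and the input samples were not analysed here. Depth is unknown, so what it limits cannot be examined.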
